A study of Mus musculus with 22 samples.

Results

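Tumour necrosis factor (Tnf) and NF-kB form a signalling route of innate immune cells, and 10 of its genes were described here in mouse microglia: the ligand Tnf, its receptors Tnfrsf1a and Tnfrsf1b, the NF-kB subunit genes Nfkb1, Nfkb2, Rel, Rela and Relb, the inhibitor Tnfaip3 and the target Icam1. They were chosen by name, and each was represented by the probe set that maps to that gene alone with the highest mean. Of the 10 genes, 9 had such a probe set, and all 9 were among the 11830 of 19937 genes kept for testing, since they lay above the array's median on all 22 arrays. Nfkb1, which encodes the p105 precursor of p50, has no entry in the probe table used here and is only named.

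The arrays came from sorted microglia, taken as brain cells positive for CD11b, CD45 and F4/80, of Trem2-/- mice (knockout, KO) and wild-type mice (WT). Trem2 is a lipid-sensing receptor of myeloid cells. The treated groups were fed 0.2% cuprizone, a copper chelator that causes loss of oligodendrocytes and myelin, or 0.1% Covi-Ox T70, a tocopherol mixture given with added alpha tocopherol, or both, for 4 weeks by the array labels. Control mice had no additive. The groups were KO cuprizone (3 arrays), KO control (2), WT both (3), WT cuprizone (3), WT Covi-Ox (3) and WT control (2), and the other 6 KO arrays have labels that contradict each other. KO set A (3 arrays) has both additives in the title and Covi-Ox alone in the other fields, KO set B (3 arrays) has the reverse, and neither reading was chosen. Both sets had Covi-Ox under either reading, so comparisons of KO with WT over all 4 diets, and of Covi-Ox with no Covi-Ox over 4 pairs of groups, are the same whichever label is right. The protocol also mentions a lead-in of 2 weeks and a longer arm, and the labels give neither age nor sex and do not say that replicates are separate mice, so p-values measure the spread between samples, which may be technical.

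Binding of Tnf to its receptors recruits adaptors and ubiquitin ligases that activate the IkB kinases, which mark the IkB inhibitors for destruction and free NF-kB dimers to enter the nucleus. These dimers, of the classical branch, hold Rela or Rel with p50. The dimer of the non-classical branch holds Relb with p52, the product of Nfkb2. Many inhibitors of the route, Tnfaip3 (A20) among them, are themselves NF-kB targets, and microglia are a main source of Tnf in the brain.

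To show where the regulatory sequence of these genes holds NF-kB motifs, the 250 bases upstream of annotated RefSeq starts (assembly GRCm38.p6) were searched on both strands for the classical kappaB consensus, a motif of 10 bases in which overlapping matches were counted separately. Windows were found for 8 of the 9 measured genes, 11 windows in all, and 3 genes (Tnfaip3, Nfkb2 and Rel) held a match. Over all 32851 windows 3.9% held one, and over genes 4.46% of 27025. The windows below, printed 5′ to 3′ on the gene's strand and ending at the base before the start, are of the 3 genes with a match and of Tnf, which had none, with the matched bases in capitals. They lie at chr10:19015411-19015660 (minus strand) for Tnfaip3, chr19:46304487-46304736 (plus strand) for Nfkb2, chr11:23770970-23771219 (minus strand) for Rel and chr17:35202008-35202257 (minus strand) for Tnf.
Tnfaip3: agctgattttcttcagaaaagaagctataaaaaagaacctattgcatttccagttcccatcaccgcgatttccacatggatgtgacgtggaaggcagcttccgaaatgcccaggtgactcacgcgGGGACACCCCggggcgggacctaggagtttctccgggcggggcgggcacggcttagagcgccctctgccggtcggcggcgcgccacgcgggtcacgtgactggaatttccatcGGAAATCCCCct
Nfkb2: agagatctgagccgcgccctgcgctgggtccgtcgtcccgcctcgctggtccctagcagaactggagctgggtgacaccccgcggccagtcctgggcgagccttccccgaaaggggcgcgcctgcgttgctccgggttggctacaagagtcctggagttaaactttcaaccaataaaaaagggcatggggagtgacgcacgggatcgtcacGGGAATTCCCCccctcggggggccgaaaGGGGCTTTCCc
Rel: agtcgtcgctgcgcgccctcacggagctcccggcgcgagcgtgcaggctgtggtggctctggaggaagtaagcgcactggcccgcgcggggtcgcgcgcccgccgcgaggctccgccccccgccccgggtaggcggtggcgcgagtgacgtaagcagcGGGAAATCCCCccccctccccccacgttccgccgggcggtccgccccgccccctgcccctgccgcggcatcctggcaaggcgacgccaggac
Tnf: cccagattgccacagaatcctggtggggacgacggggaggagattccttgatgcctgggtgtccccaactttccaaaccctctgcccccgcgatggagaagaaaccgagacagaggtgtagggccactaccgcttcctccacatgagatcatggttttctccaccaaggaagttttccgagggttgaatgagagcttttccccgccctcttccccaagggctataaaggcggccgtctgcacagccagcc
Where a gene had several windows, the one with the most matches is printed. The Tnfaip3 window held 2 matches, which began 125 and 12 bases upstream of the start. The Nfkb2 window held 3, which began 39, 38 and 11 bases upstream, the first 2 of them overlapping. In the Rel window 2 overlapping matches began 92 and 91 bases upstream. The other Tnfaip3 window held 0 matches and each of the other 2 Nfkb2 windows held 1. A match is a run of letters and no evidence of binding, and its absence says only that these letters are not in the window.

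Trem2 checked the genotype labels, with 84.5 to 114 intensity units on the 11 KO arrays and 1022 to 1724 on the 11 WT arrays. The 8 microglial markers with a probe set lay above the array median (36.1 to 38.6) on all arrays. Markers of other cells were also present: all 6 border macrophage markers, such as Mrc1 and Pf4, lay above the median on all arrays. Of the 9 neutrophil markers, S100a9 lay above it on 19 arrays, Camp on 18, S100a8 on 17 and Retnlg on 13. Ngp did on 10, Lcn2 on 8, Ltf on 1 and Mmp8 and Cxcr2 on none. S100a8 reached 1414 units and S100a9 1565. A set of 3 arrays stood apart. The mean over 24 genes of the immediate-early class (Junb and Egr1 among them) was 8.84 and 8.86 (log2) on KO cuprizone 2 and 3 and 8.46 on WT cuprizone 3, against 9.80 to 10.05 on the other 19. The main differences of the 9 genes are therefore also given without these 3 low arrays.

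Tnf, the ligand, had 1009, 866 and 842 intensity units in KO set A, 1262, 1984 and 2209 in KO set B, 1235, 334 and 366 in KO cuprizone and 934 and 928 in KO control. In WT mice it had 2207, 2019 and 2339 with both additives, 1851, 1703 and 366 on cuprizone, 913, 1143 and 1194 on Covi-Ox and 1147 and 1435 in control. The arrays of WT both lay above those of every other WT group, a separation whose share over all genes was not counted. The lowest 3 of the 22 values were the 3 low arrays. By group mean (log2, ± SD) the order ran from WT both (11.09 ± 0.11) over KO set B (10.79 ± 0.43), WT control (10.33 ± 0.23), WT Covi-Ox (10.07 ± 0.21), WT cuprizone (10.04 ± 1.32), KO control (9.86 ± 0.01) and KO set A (9.82 ± 0.14) to KO cuprizone (9.06 ± 1.05). Neighbours in this order differed by less than the larger of their SDs, except KO set B from WT control and WT control from WT Covi-Ox, which differed by slightly more. The wide SDs of KO cuprizone and WT cuprizone come from the low arrays.

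The receptors varied little. Tnfrsf1a, the broadly expressed receptor with a death domain, ran from 484 to 659 units on the KO arrays and 495 to 712 on the WT arrays. Tnfrsf1b, the second receptor, which has no death domain, ran from 317 to 404 and from 312 to 376. None of the 3 low arrays lay below the other 19 for either receptor. Their residual SDs (log2) in the model were 0.14 and 0.09, against 0.67 for Tnf.

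Of the NF-kB subunits, Nfkb2 had 163, 160.5 and 159 units in KO set A, 154, 157 and 142 in KO set B, 128, 108 and 116 in KO cuprizone and 159.9 and 188 in KO control. In WT mice it had 173, 191 and 175 with both, 175, 167 and 113 on cuprizone, 193, 211 and 186 on Covi-Ox and 169 and 201 in control. The KO arrays of the 2 sets all lay below the WT arrays with Covi-Ox, and how many of all genes part in this way was not counted. The ranges of KO control and WT control overlapped. Relb, the partner of p52, was the dimmest of the members relative to the other genes of its arrays, between the 63.8th and 80.5th percentile, with 61.6 to 114 units on the KO arrays and 65.7 to 138 on the WT arrays. Rela, the main activating subunit of the classical branch, ran from 472 to 698 and from 489 to 719 units. Rel, the c-Rel subunit of immune cells, had 656 and 656 units on the 2 low KO cuprizone arrays and 1013 on the third, and 373 on the low WT cuprizone array against 873 and 776 on the other 2. Here 1 of the 3 low arrays lay below the other 19, while for Nfkb2, Relb and Rela all 3 did.

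Tnfaip3, the ubiquitin-editing enzyme A20 that restrains NF-kB, had 1737, 1548 and 1453 units in KO set A, 1831, 1996 and 1916 in KO set B, 1384, 468 and 552 in KO cuprizone and 1368 and 991 in KO control. In WT mice it had 1877, 1782 and 1879 with both, 1625, 1674 and 377 on cuprizone, 1668, 2085 and 2099 on Covi-Ox and 1355 and 1295 in control. The 12 arrays with Covi-Ox spanned 1453 to 2099 with a median of 1854, and the 10 without spanned 377 to 1674 with a median of 1325, so the groups overlapped over a narrow range. Icam1, the adhesion molecule that binds leukocyte integrins, had 389.9, 197 and 158 units in KO cuprizone and 387 and 291 in KO control, against 377, 407 and 255 in WT cuprizone and 491 and 539.6 in WT control. Both KO control arrays lay below both WT control arrays, and 36.8% of all genes had no overlap between these groups.

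**Figure D1:**
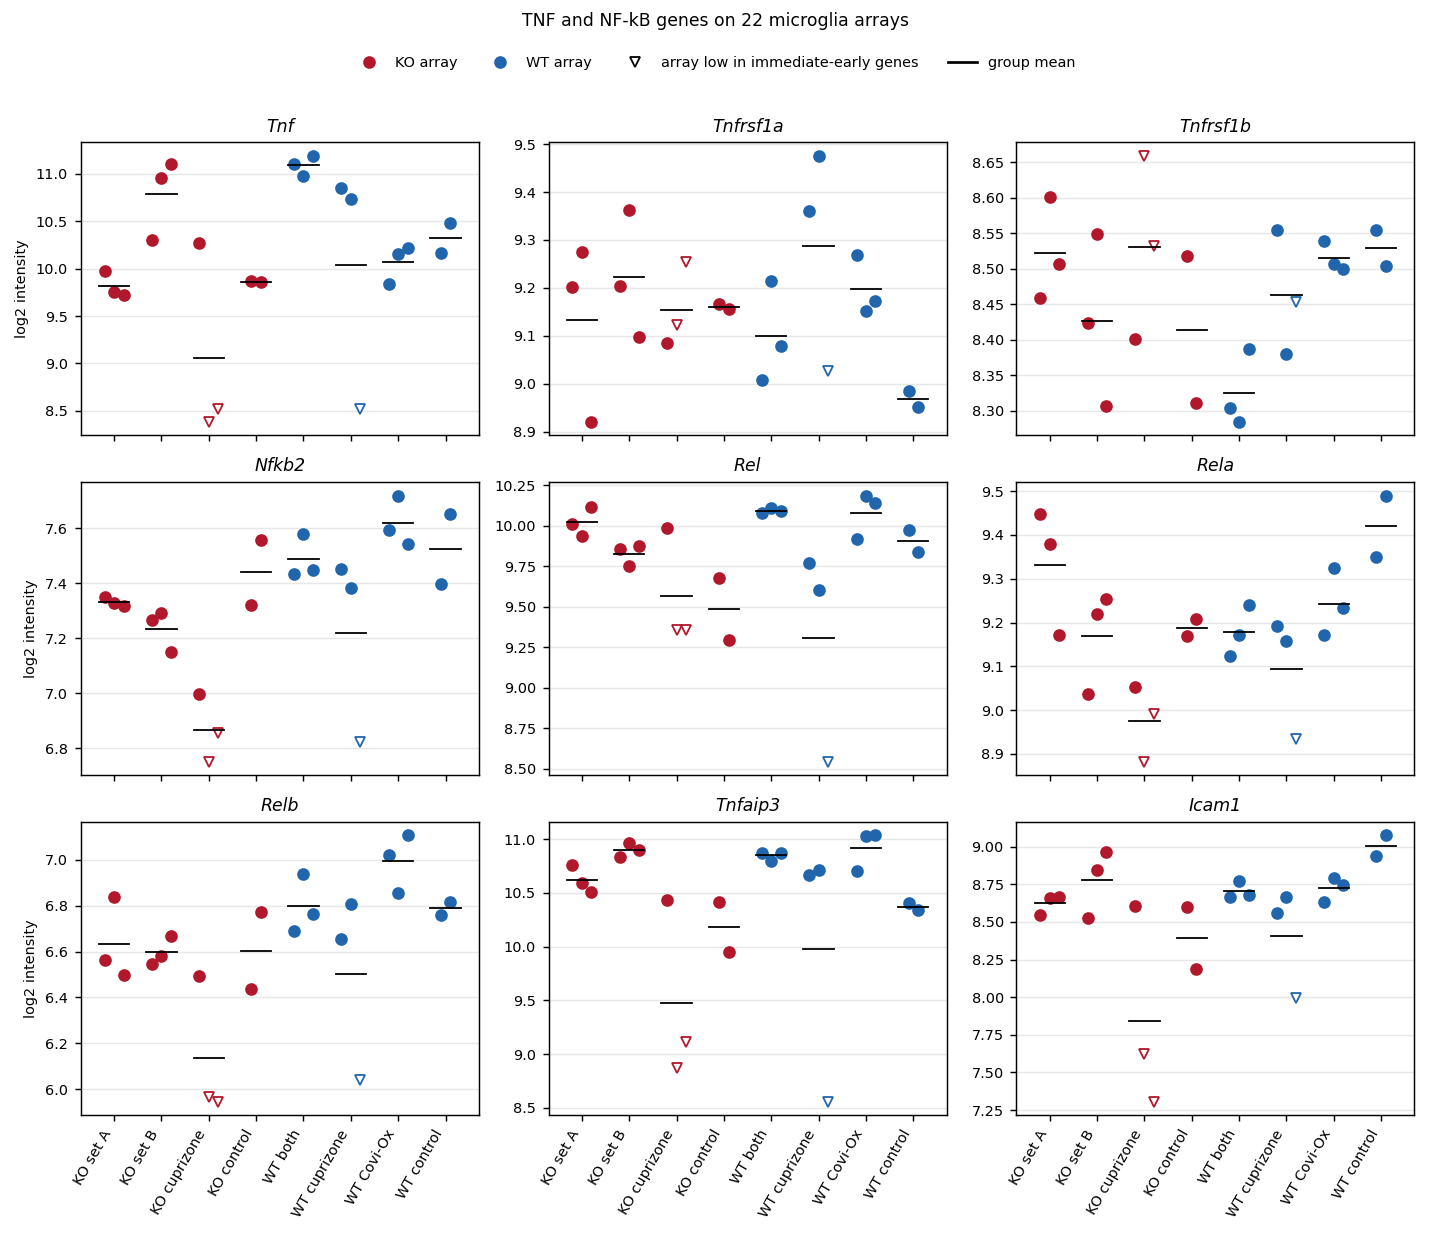
Log2 intensity of the 9 measured genes on each array, by group, with KO arrays in red, WT arrays in blue, the 3 low arrays as open triangles and a line at each group mean. Tnf lies at 334 to 366 units on the 3 low arrays, below all its other values, and Tnfaip3 at 377 to 552, while for both receptors the low arrays lie within or above the range of the other arrays.

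On the 3 low arrays 6 of the 9 genes (Tnf, Nfkb2, Rela, Relb, Tnfaip3 and Icam1) lay below all 19 other arrays, as 1.96% of the 11830 genes did. For Tnf the values were 8.38, 8.52 and 8.52 (log2) on KO cuprizone 2, KO cuprizone 3 and WT cuprizone 3, against 9.72 to 11.19 on the others. For Tnfaip3 they were 8.87, 9.11 and 8.56, against 9.95 to 11.04. Summed border macrophage markers were 1148 to 1467 on the low arrays and 1174 to 2648 on the others. The part of either in these levels was not tested. Leaving the 3 arrays out lowered the residual SD of Tnf to 0.23, against 0.67 with them, that of Tnfaip3 to 0.14, against 0.58, and that of Rel to 0.12, against 0.30. In bulk RNA of sorted cells, fewer cells that make a transcript and less of it per cell cannot be told apart.

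**Figure D2:**
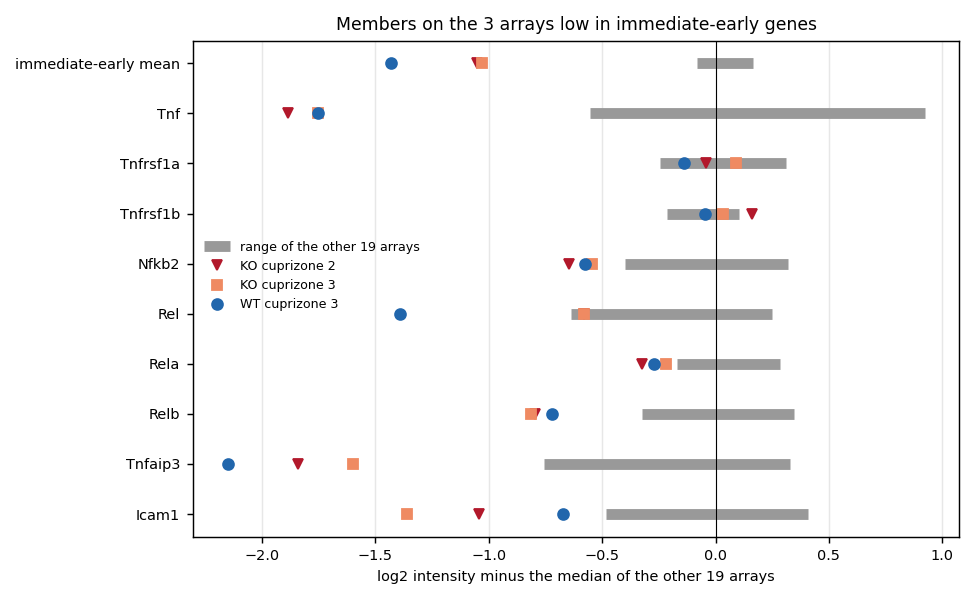
Level of each gene and of the immediate-early mean on the 3 low arrays (markers), as log2 intensity minus the median of the other 19 arrays, whose range is the grey bar. All 3 markers lie left of the bar for 6 of the 9 genes, 1 does for Rel, and none for the receptors.

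No member passed the test for cuprizone alone. The test used throughout was limma's moderated test with Benjamini-Hochberg adjustment over all 11830 genes and a call at an adjusted p under 0.05. In WT cuprizone against WT control 0 of 9 were called, where 2.5% of all genes were, and 4 had an unadjusted p under 0.05, as 16.7% of all genes had. These were Rela (log2 difference -0.33 ± 0.11 SE, adjusted p = 0.14), Rel (-0.60 ± 0.25, adjusted p = 0.226), Icam1 (-0.60 ± 0.26, adjusted p = 0.245) and Tnfrsf1a (0.32 ± 0.13, adjusted p = 0.225). The difference of Tnf was -0.29 ± 0.52 (adjusted p = 0.843) with the low array and 0.47 ± 0.21 (adjusted p = 0.373) without it, so its sign depends on WT cuprizone 3. That of Tnfaip3 likewise was -0.39 ± 0.45 (adjusted p = 0.727) with it and 0.32 ± 0.15 (adjusted p = 0.412) without it. Rel stood at -0.22 ± 0.13 (adjusted p = 0.563) and Icam1 at -0.39 ± 0.15 (adjusted p = 0.267) without it.

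In KO cuprizone against KO control 0 of 9 genes were called, where 0.0423% of all genes were, and 3 had an unadjusted p under 0.05, as 13.4% of all genes had. Nfkb2 differed by -0.57 ± 0.15 (adjusted p = 0.135) and by -0.44 ± 0.14 (adjusted p = 0.36) without the low arrays. The difference of Tnf was -0.81 ± 0.52 (adjusted p = 0.532) with them and 0.41 ± 0.25 (adjusted p = 0.69) without them, when a single KO cuprizone array is left and is assumed to vary like the other groups. Icam1 likewise stood at -0.55 ± 0.26 (adjusted p = 0.364) with them and 0.22 ± 0.18 (adjusted p = 0.786) without them, and Tnfaip3 at -0.71 ± 0.45 (adjusted p = 0.521) and 0.25 ± 0.18 (adjusted p = 0.737). The test of whether the cuprizone differences of KO and WT mice differ called 0 of 9, where 0.228% of all genes were called, and no member had an unadjusted p under 0.05. The largest such difference was that of Rel (0.68 ± 0.35, adjusted p = 0.534). Without the low arrays 3 members had an unadjusted p under 0.05, as 9.19% of all genes had, and none of them was called: Rel (0.72 ± 0.21, adjusted p = 0.277), Icam1 (0.61 ± 0.23, adjusted p = 0.413, against 0.05 ± 0.36 with them) and Tnfrsf1a (-0.53 ± 0.20, adjusted p = 0.413).

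With Covi-Ox in the diet, WT both was set against WT Covi-Ox. All 3 Tnf values with both additives (2019 to 2339 units) lay above the 3 with Covi-Ox alone (913 to 1194). Of all genes 30.5% had no overlap between these groups. The log2 difference of Tnf was 1.02 ± 0.47 with a 95% interval of 0.04 to 2.00. This did not pass the test over all arrays (adjusted p = 0.215, 0 of 9 genes called, 7.82% of all genes called). The SE is shared over the 8 groups and holds the 3 low arrays, none of which is in this comparison. Without them the same difference had an SE of 0.17 and was called (adjusted p = 0.000564), 1 of 9 genes where 11.6% of all genes were called. Over its 17 alternatives the adjusted p ran from 1.1e-06 to 0.398, and the Tnf difference was called in 4. It was called in 0 of the 6 fits that left out 1 array. The other 8 genes differed by -0.20 to 0.01, with Tnfaip3 at -0.07 ± 0.41 and Icam1 at -0.02 ± 0.23. Cell type markers moved with this comparison. Summed microglial markers were 16184 to 16218.5 with both and 20255 to 20439 with Covi-Ox. Of the 8 tested 4 were called lower and 0 higher, where 3.17% of all genes were called lower. Summed border macrophage markers were 1174 to 1461 with both and 2125 to 2648 with Covi-Ox, and summed neutrophil markers 362 to 547 and 175 to 245. Summed endothelial markers were 211 to 248 and 146 to 184, but of the 3 endothelial markers tested 1 was called higher and 1 lower, with a median of -0.36 against -0.03 over all genes. The part of these markers in the result was not tested.

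KO set A and KO set B differed in Tnf by -0.97 ± 0.47 (set A minus set B, adjusted p = 0.573), with all 3 values of set A (842 to 1009) below the 3 of set B (1262 to 2209). Of all genes 19.3% had no overlap between the sets. Of the 9 genes 0 were called with all arrays, where 0.00845% of all genes were. Without the 3 low arrays, which belong to neither set, the SE was 0.17 and Tnf was called (adjusted p = 0.0103), 1 of 9 where 0.609% of all genes were. Over 17 alternatives the adjusted p of this Tnf difference ran from 0.00106 to 0.886, and it was called in 2. It was called in 0 of the 6 fits that left out 1 array. Border macrophage markers summed to 1999 to 2572 in set A and 1266 to 1851 in set B, and their part in the difference was not tested. No treatment is read from it.

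Nfkb2 was lower in KO than in WT microglia over the 4 diets, by -0.24 ± 0.07 (log2, a 1.18-fold difference, adjusted p = 0.0429). It was the 1 of 9 genes called, where 6.37% of all genes were called and 4.69% called lower. The call is near the threshold: over 32 alternatives the adjusted p ran from 0.00168 to 0.143 and the gene was called in 12, with the difference between -0.29 and -0.20 in all of them. It was called in 4 of the 22 fits that left out 1 array, those without KO control 2, KO cuprizone 1, WT control 1 or WT cuprizone 3. Relb, its partner, differed by -0.28 ± 0.09 (adjusted p = 0.0789) and Icam1 by -0.30 ± 0.12 (adjusted p = 0.15), or -0.16 ± 0.07 (adjusted p = 0.215) without the low arrays. Tnf differed by -0.50 ± 0.25 (adjusted p = 0.237). Of the 8 microglial markers tested 4 were called higher in KO and 1 lower, where 1.68% of all genes were called higher. The part of these markers in the differences was not tested. Without the 3 low arrays, 2 of which are KO and 1 WT, 2 of 9 genes were called lower where 4.81% of all genes were called. These were Nfkb2 (-0.26 ± 0.06, adjusted p = 0.0114) and Tnf (-0.39 ± 0.10, adjusted p = 0.0349), and Relb stood at -0.25 ± 0.07 (adjusted p = 0.0515).

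Within single diets no member passed the test between genotypes with all arrays. In KO control against WT control 0 of 9 genes were called, where 0.0676% of all genes were, and Icam1 had the lowest p (-0.62 ± 0.28, adjusted p = 0.451). In KO cuprizone against WT cuprizone 0 of 9 were called, where 3.8% of all genes were, while 4 had an unadjusted p under 0.05, as 19.1% of all genes had. The differences of Tnf (-0.98 ± 0.47, adjusted p = 0.26), Nfkb2 (-0.35 ± 0.13, adjusted p = 0.15), Relb (-0.37 ± 0.17, adjusted p = 0.254) and Icam1 (-0.56 ± 0.23, adjusted p = 0.187) were all negative. Here the low arrays are 2 of the 3 KO arrays and 1 of the 3 WT arrays. Without WT cuprizone 3 alone, 4 genes were called lower (2.31% of all genes called), Tnf among them at -1.74 (adjusted p = 0.0144), and without KO cuprizone 1 alone 2 were (4.47% of all genes called). Without all 3, 0 of 9 were called by limma, where 0.702% of all genes were, and 2 had an unadjusted p under 0.05, as 11% of all genes had. Tnf then stood at -0.52 ± 0.25 (adjusted p = 0.462) and Icam1 at -0.01 ± 0.18.

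Covi-Ox minus no Covi-Ox, averaged over 4 pairs of groups, called 0 of 9 genes, where 1.22% of all genes were called, and 6 had an unadjusted p under 0.05, as 13.2% of all genes had. All 3 low arrays are on the side without Covi-Ox. Tnfaip3 came nearest, at 0.82 ± 0.22 (adjusted p = 0.0644), followed by Rel at 0.44 ± 0.12 (adjusted p = 0.0697). Without the low arrays Tnfaip3 stood at 0.40 ± 0.07 and was called (adjusted p = 0.00741), 1 of 9 where 2.13% of all genes were, and Rel stood at 0.24 ± 0.06 (adjusted p = 0.066). Of the 32 alternatives of Tnfaip3, 10 called it, with adjusted p from 0.00741 to 0.179. Tnf, at 0.62 ± 0.25 (adjusted p = 0.266) with all arrays, was at 0.13 ± 0.10 (adjusted p = 0.615) without the low ones. Neutrophil markers summed to 175 to 794 units with Covi-Ox and 693 to 3402 without it, and their part in these differences was not tested. In WT mice alone, Covi-Ox against control called 0 of 9 genes, where 0.0338% of all genes were, with Tnfaip3 at 0.55 ± 0.45 (adjusted p = 0.854) and at 0.55 ± 0.13 (adjusted p = 0.0983) without the low arrays. WT both against WT cuprizone called 0 of 9, where 0.152% of all genes were, with Rel at 0.79 ± 0.22 (adjusted p = 0.208) and Tnf at 1.06 ± 0.47 (adjusted p = 0.572), which without the low array were 0.41 ± 0.12 and 0.30 ± 0.19. Tnfaip3 there stood at 0.87 ± 0.41 (adjusted p = 0.593) and, without the low array, at 0.16 ± 0.13 (adjusted p = 0.728).

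**Figure D3:**
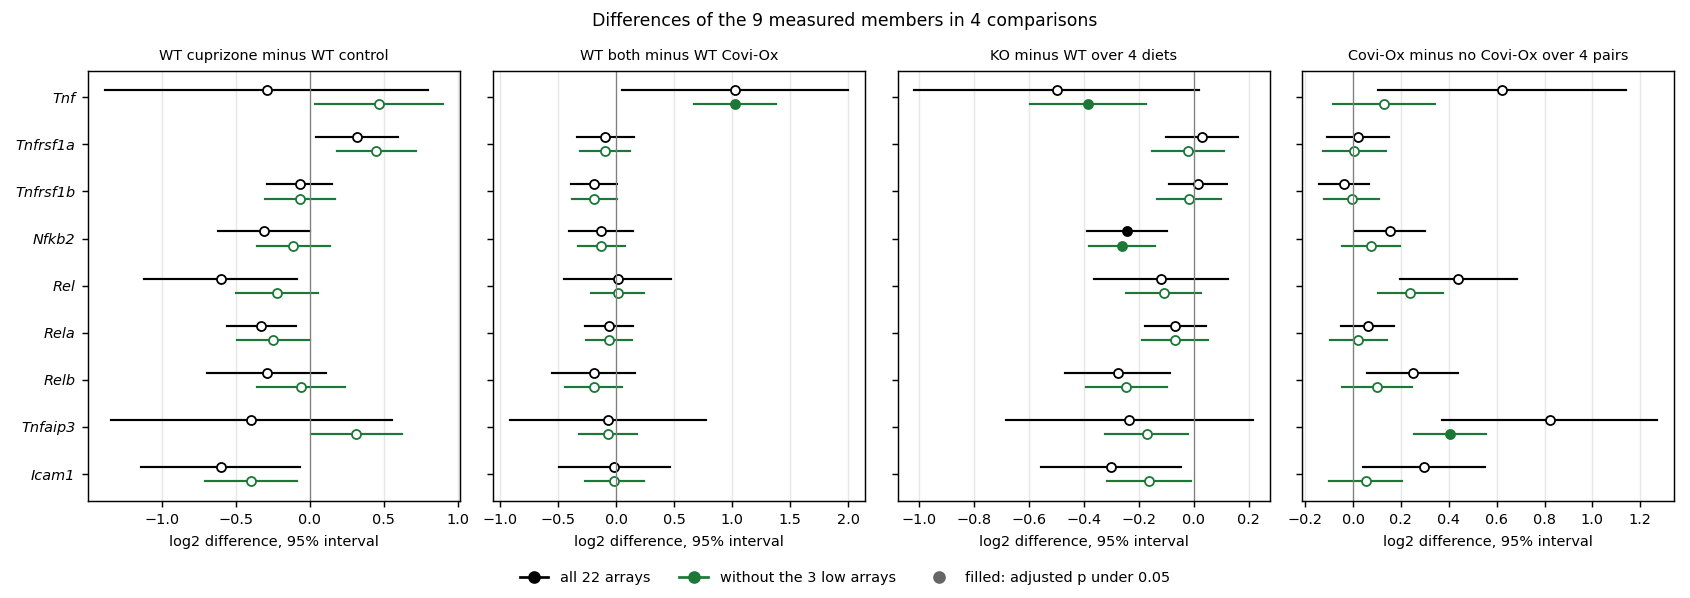
Log2 difference with its 95% interval for each measured gene in 4 comparisons, from all 22 arrays (black) and without the 3 low arrays (green), with filled points for genes called at an adjusted p under 0.05. Nfkb2 over the 4 diets (-0.24) is the filled point among the black ones. Among the green ones Tnf in WT both minus WT Covi-Ox (1.02), Tnf (-0.39) and Nfkb2 (-0.26) over the 4 diets and Tnfaip3 for Covi-Ox (0.40) are filled.

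Further genes of the route were taken from 4 lists: 15 tested inhibitors and regulators of NF-kB, 24 adaptors and kinases, 17 other TNF family ligands and receptors and 25 other NF-kB targets. These lists were chosen with earlier results of these data known, so their counts are a description and no test of a list. In WT cuprizone against WT control 6 of the 25 targets rose and 0 fell, where 1.8% of all genes were called higher, with a median over the list of 0.09 against -0.02 over all genes. They were the chemokines Ccl5 (log2 difference 2.29) and Cxcl16 (0.77), the macrophage growth factor Csf1 (2.15), the interleukin-1 antagonist Il1rn (1.10), the urokinase Plau (1.05) and the hyaluronan receptor Cd44 (1.02). Csf1 had 757 to 839.5 units on the 3 WT cuprizone arrays and 173 to 190.1 on the 2 WT control arrays, with no overlap, as 32.9% of all genes had. The ligand gene Tnfsf8 rose (1.53, and 1.01 without the low arrays, still called) and Casp8, the initiator caspase of death receptors, fell by 0.46, where 0.702% of all genes were called lower. Casp8 was not called without the low arrays (-0.43, adjusted p = 0.141). The targets that rose then numbered 9, these 6 among them, where 1.24% of all genes were called higher. Beside these counts, summed border macrophage markers were 1403 to 1966 in WT cuprizone and 2544 to 2637 in WT control, and summed neutrophil markers 693 to 2453 and 3351 to 3402. Neither pair overlapped, and their part in the differences was not tested. In KO cuprizone against KO control 0 genes of the 4 lists were called by limma with all arrays, where 0.0423% of all genes were. Here 4 inhibitors, 2 adaptors and kinases, 3 family members and 1 target had an unadjusted p under 0.05, as 13.4% of all genes had. Of the targets 1 was called higher without the low arrays, where 0.0507% of all genes were, and that fit leaves 1 KO cuprizone array. The direct test of the difference between genotypes called 2 targets lower, Csf1 (-1.85) and Cxcl16 (-0.80), where 0.186% of all genes were. Both calls were lost without the low arrays (-1.28, adjusted p = 0.186, and -0.72, adjusted p = 0.228).

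In WT both against WT Covi-Ox 10 of the 25 targets rose and 0 fell, where 4.65% of all genes were called higher, with a list median of 0.70 against -0.03 over all genes. The 6 with the highest differences were the prostaglandin synthase Ptgs2 (2.83), the chemokine Cxcl10 (2.02), Cd44 (2.01), Il1rn (1.88), Csf1 (1.69) and Ccl5 (1.40). Ptgs2 had 1300 to 1326 units on the arrays with both, against 169.9 to 202 with Covi-Ox alone. The ligand genes Tnfsf9 (2.53) and Tnfsf8 (2.24) rose as well. Of the adaptors and kinases 2 fell, Tab2, an adaptor of the kinase Tak1, by 0.40 and Traf5, a receptor adaptor, by 0.39, where 3.17% of all genes were called lower. Of the 15 inhibitors and regulators 0 were called. Without the 3 low arrays 16 targets rose, the 10 among them, where 6.43% of all genes were called higher. In WT both against WT cuprizone 2 targets were called higher, where 0.11% of all genes were, Cd44 (0.99) and the interleukin-12 subunit Il12b (1.01), and without the low arrays 6, where 0.904% of all genes were. Il12b lay above the array medians in WT both alone (48.7 to 58.8 units) and was kept for testing through that group, so its higher level there is no finding. It is among the 10 and the 2 targets counted here, and among the 11 between genotypes and the 7 for Covi-Ox below.

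Between genotypes, 11 of the 25 targets fell in KO cells over the 4 diets and 0 rose, where 4.69% of all genes were called lower, with a list median of -0.47 against -0.01. The 6 largest falls were those of Ptgs2 (-1.32), Csf1 (-1.22), Cxcl16 (-0.80), Il1rn (-0.76), the stress gene Gadd45b (-0.74) and Cd44 (-0.68). Of the inhibitors Tnip1 (-0.22) and Tnip2 (-0.23), both partners of A20, fell. Of the TNF family Tnfsf9 (-1.10) and Tnfsf8 (-0.93) fell, and the receptor genes Tnfrsf21 (0.39) and Tnfrsf13b (0.17) rose, where 1.68% of all genes were called higher. Tnfrsf13b lost its call without the low arrays (0.13), while Tnfsf9, Tnfsf8 and Tnfrsf21 kept theirs. Tnfrsf21 had 772 to 977 units on the KO arrays of the 4 groups and 588 to 697 on the WT arrays. The share of all genes without overlap between all KO and all WT arrays was not counted. Without the low arrays 16 targets fell, 10 of the 11 among them, and 1 rose, where 3.84% of all genes were called lower and 0.972% higher.

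In KO cuprizone against WT cuprizone 7 of 25 targets fell, where 2.98% of all genes were called lower, led by Csf1 (-2.13), Cxcl10 (-1.62), Cxcl16 (-1.21), Il1rn (-1.20), Plau (-1.05) and Cd44 (-0.95). Csf1 had 138 to 268 units in KO cuprizone, against 757 to 839.5 in WT cuprizone. Without the low arrays, which leaves 1 KO array, 4 fell, 3 of the 7 among them, where 0.626% of all genes were called lower. Tnfsf9 (-2.06) and Tnfsf8 (-1.34) fell and Tnfrsf21 (0.43) rose, where 0.82% of all genes were called higher. Tnfsf8 kept its call without the low arrays (-1.29, adjusted p = 0.0365), and Tnfsf9 (-1.66) and Tnfrsf21 (0.59) did not (adjusted p = 0.0502 for each).

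For Covi-Ox over 4 pairs 7 of 25 targets rose, where 0.837% of all genes were called higher, led by Cxcl10 (1.08), Ccl5 (0.92), the surface protein Cd83 (0.77), Csf1 (0.59), Il12b (0.33) and Cd44 (0.33). Of these, Il12b was kept for testing through WT both, a group with Covi-Ox, so its rise is no finding. Tnfsf9 (1.13) and Tnfrsf14 (0.38) rose, and the lymphotoxin receptor Ltbr fell by 0.30, where 0.38% of all genes were called lower. Ltbr acts upstream of the non-classical branch. Without the low arrays 8 targets rose, these 7 among them, and 1 fell, where 1.43% of all genes were called higher and 0.702% lower. KO set A minus KO set B called 0 of 25 targets by limma with all arrays, 7 of them with an unadjusted p under 0.05, as 8.8% of all genes had. Without the low arrays, which belong to neither set, it called 7 lower, where 0.456% of all genes were called lower. In the other 3 lists no count in either direction moved by more than 2 genes when the low arrays were left out. Some of these genes were dim, near or below the array medians in part of the groups: Il12b had 19.5 to 30.4 units outside WT both, Cd44 27.7 to 46.4 outside WT both and WT cuprizone, and Tnfsf8 21.6 to 46.7 outside the same groups.

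**Figure D4:**
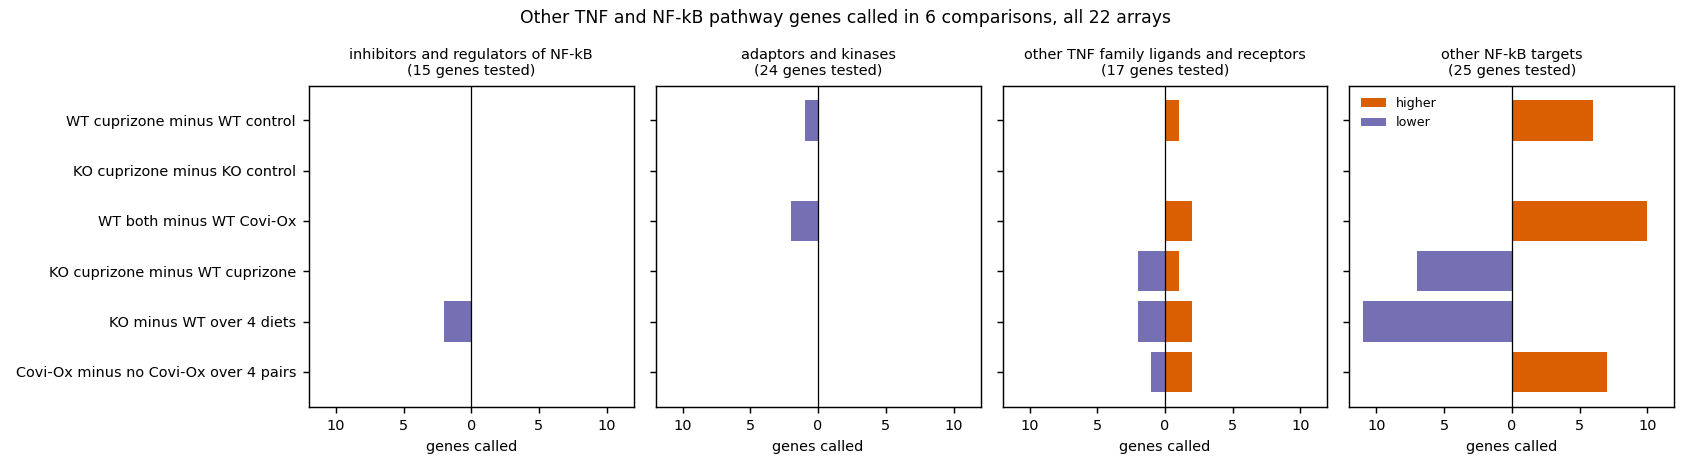
Number of genes called higher (right) and lower (left) in each of 4 lists of pathway genes in 6 comparisons, from all 22 arrays. The lists were chosen with earlier results of these data known. The targets show up to 10 genes higher (WT both minus WT Covi-Ox) and 11 lower (KO minus WT over 4 diets), and each of the other 3 lists at most 2 in either direction.

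The genes whose levels ran most like those of each member were taken as the 5 with the highest Pearson r over the 22 arrays, a description in which the 3 low arrays and the shared normalization weigh on all genes. For Tnf they were Il1b (r = 0.945), Gadd45b (0.941), the nuclear receptor Nr4a1 (0.937), the chemokine Ccl4 (0.927) and Ptgs2 (0.926), and over the 19 other arrays these r were 0.866 to 0.897. For Tnfaip3 they were Mcl1 (0.974), Ppp1r15a (0.963), Kdm6b (0.96), Il1a (0.953) and Nr4a1 (0.947). Nfkb2 and Relb, the genes of the non-classical pair, were each other's nearest gene (0.892), with an r of 0.696 over the 19 arrays. The likeness of Relb to Junb (0.842) and of Icam1 to Junb (0.885) was 0.195 and 0.198 over the 19 arrays. For Rel the nearest gene was Dusp16 (0.92), for Rela Dnajb1 (0.876) and for Icam1 Gem (0.92). The receptors had no gene above 0.76, Tnfrsf1b being nearest to Zfp759 (0.76) and Tnfrsf1a to Cep57l1 (0.692). With the immediate-early mean, r over 22 arrays was 0.941 for Tnfaip3, 0.849 for Icam1, 0.823 for Tnf and 0.137 for Tnfrsf1a. Over the 19 arrays these were 0.44, 0.582, 0.315 and 0.19.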

How the data were processed

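Sorted microglia were profiled on 22 mouse gene arrays, 2 or 3 for each of 8 groups. The authors deposited 1 linear intensity per probe set and array, normalized by RMA per the submitters' processing notes, which name no version. RMA gives arrays like distributions, so a change in total RNA per cell cannot be seen.

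The deposited table holds 28098 probe sets with 2 missing cells. Of these 22961 are in the platform's probe table, 21640 with a single gene, and the others were left out. Where a gene had several probe sets, the brightest on average stood for it, and genes over the 50th percentile of 2 or more arrays were tested. Log2 of the deposited intensity was fitted with limma 3.58.1 in R 4.3.3 as 8 group means over all 22 arrays (14 residual and 5.49 prior degrees of freedom). In total 11 contrasts were tested, two-sided, with Benjamini-Hochberg adjustment over 11830 genes and a call at an adjusted p under 0.05. Errors are SEs of this model unless SD is named, and the number of arrays limits the precision. The steps were tested on simulated data.

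The members always appear, and of each list up to 6 called genes per comparison, those with the largest change, are named. The members, lists, comparisons and the alternatives were chosen with earlier results of these data known. Alternatives were 12 in kind: a replicate block, no filter, a stricter filter (75th percentile), quantile normalization, median centring, averaging a gene's probe sets, trend and robust options, array weights, leaving out the 3 low arrays, the immediate-early mean as a covariate, only the arrays compared, and leaving out each array. Replicate numbers recur between groups without a stated link, and the check of pairing is given with the alternatives.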

Additional observations from a re-analysis of the deposited data

How the results depend on the processing

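For single genes 1815 of 1944 values kept their direction and side of the threshold, 50 became called, 20 lost the call and 59 changed sign, 1 of them called in either fit; the causes were not tested. The changed signs without the 3 low arrays were those of WT cuprizone minus WT control for Tnf (0.47) and Tnfaip3 (0.32), of KO cuprizone minus KO control for Tnf (0.41), Tnfaip3 (0.25), Icam1 (0.22) and Tnfrsf1b (-0.014), of KO cuprizone minus WT cuprizone for Tnfrsf1b (-0.066) and of KO minus WT for Tnfrsf1a (-0.021) and Tnfrsf1b (-0.018). With the immediate-early covariate they were WT cuprizone minus WT control for Tnf (0.54, adjusted p = 0.0496) and Tnfaip3 (0.32), KO cuprizone minus KO control for Tnf (0.35), Tnfaip3 (0.28) and Tnfrsf1a (0.098), WT both minus WT Covi-Ox for Tnfaip3 (0.043) and Icam1 (0.036), and Covi-Ox for Tnfrsf1a (-0.029). With array weights they were WT cuprizone minus WT control for Tnf (0.26) and Tnfaip3 (0.11), the difference of cuprizone effects for Icam1 (-0.21), Rel in KO cuprizone minus WT cuprizone (-0.10), KO cuprizone minus KO control (-0.0019) and WT both minus WT Covi-Ox (-0.0074), and Covi-Ox for Tnfrsf1a (-0.0016). With quantile normalization they were WT both minus WT Covi-Ox for Rel (-0.11), WT Covi-Ox minus WT control for Tnfrsf1b (0.031), KO cuprizone minus WT cuprizone for Rela (0.0012) and Covi-Ox for Tnfrsf1a (-0.0020). With median centring they were KO cuprizone minus WT cuprizone for Tnfrsf1b (-0.0070) and KO minus WT for Tnfrsf1a (-0.011) and Tnfrsf1b (-0.025), and with the replicate block KO cuprizone minus KO control for Tnfrsf1a (0.039). Leaving out 1 array changed the sign of 18 differences. Tnf ran from -0.70 to 0.47 and Tnfaip3 from -0.76 to 0.32 for WT cuprizone minus WT control, both positive without WT cuprizone 3. Rel ran from -0.13 to 0.27 and Tnfrsf1a from -0.057 to 0.028 for KO cuprizone minus KO control. Icam1 ran from -0.33 to 0.32 and Tnfaip3 from -1.03 to 0.046 for the difference of cuprizone effects. Rel ran from -0.070 to 0.064 and Icam1 from -0.062 to 0.017 for WT both minus WT Covi-Ox, Tnfrsf1b from -0.040 to 0.011 and Nfkb2 from -0.035 to 0.22 for WT Covi-Ox minus WT control, and Nfkb2 from -0.21 to 0.041 and Tnfaip3 from -0.42 to 0.046 for KO control minus WT control. Rel ran from -0.12 to 0.50 for KO cuprizone minus WT cuprizone, Tnfrsf1a from -0.0039 to 0.055 and Tnfrsf1b from -0.010 to 0.041 for KO minus WT, Tnfrsf1a from -0.012 to 0.047 for Covi-Ox, and Relb from -0.067 to 0.10 and Tnfrsf1a from -0.16 to 0.017 for set A minus set B. The number of members called, against the value with all arrays, was as follows. With the immediate-early covariate it was 1 for WT cuprizone minus WT control (1.53% of all genes called), the difference of cuprizone effects (0.693%, Rel at 0.82), WT both minus WT Covi-Ox (9.7%), Covi-Ox over 4 pairs (1.84%) and KO set A minus KO set B (0.575%). With this covariate it was 2 of opposite sign for KO cuprizone minus WT cuprizone (6.84%, Tnf at -0.54 and Rel at 0.45) and 4 for KO minus WT over 4 diets (8.93%). Without the 3 low arrays it was 1 for WT both minus WT Covi-Ox (11.6%), for Covi-Ox (2.13%) and for set A minus set B (0.609%), and 2 for KO minus WT (4.81%). With array weights it was 1 for WT both minus WT Covi-Ox (14.8% of all genes called), 5 for KO cuprizone minus WT cuprizone (3.9%), 4 for KO minus WT (6.21%) and 2 for Covi-Ox (1.83%). With the arrays of WT both and WT Covi-Ox alone it was 1 (10.4%). For KO minus WT it was 0 with no filter (3.35%), 0 with quantile normalization (5.4%) and 2 with median centring (7.95%). The filter at the 75th percentile gave 1 for Covi-Ox (2.77%). Leaving out 1 array gave 0 to 1 members for KO cuprizone minus KO control (1 without KO cuprizone 1 or KO control 1), 0 to 4 for KO cuprizone minus WT cuprizone, 0 to 3 for KO minus WT and 0 to 3 for Covi-Ox (1 to 3 without KO cuprizone 1, KO control 1 or any WT cuprizone array), and 0 for the others. The count of all genes called moved too: for KO minus WT it was 754 with all arrays, 1347 without KO control 1 and 439 at the lowest, for Covi-Ox 144, and 57 to 529 without 1 array, for WT cuprizone minus WT control 296, and 69 to 428, and for KO cuprizone minus WT cuprizone 450, and 207 to 529, or 83 without the 3 low arrays. Samples with the same replicate number did not deviate together (median r -0.000412, from -0.227 to 0.254 over 71 pairs), and with the replicate block Tnfaip3 was called for Covi-Ox (1 member, 1.27% of all genes called, 0.90, adjusted p = 0.0389) while no other member changed its call.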
